A study of Rattus norvegicus with 12 samples.

Results

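The 10 genes described here, Ttr, Folr1, Prlr, Clic6, Kl, Slc4a5, Otx2, Aqp1, Kcne2 and F5, are transcribed strongly in the choroid plexus and are used as its markers. They were listed by name, but with earlier results of these data known. Each symbol was found at 1 locus, so they make up 10 of the 41596 genes in the files. The samples were polyA RNA of the periaqueductal grey, the grey matter around the cerebral aqueduct of the midbrain, from 12 male Sprague Dawley rats. In the first group, called morphine-sired, the sires had received morphine (6 libraries), and in the second, called saline-sired, the sires had received saline (6 libraries). The labels give no treatment of the animals themselves, no age, no litter, no sire and no batch. Each library has its own animal number, and the p-values take the 12 animals as independent. The labels cannot show that they are, and the p-values may be too small if animals of a group share a sire or litter. Levels are given in TPM, a relative abundance estimated by the authors' software that already allows for the length of a transcript. Differences between groups are given on the scale of log2(TPM + 1) with their standard errors, and a positive one means a higher mean level in morphine-sired rats.

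The choroid plexus is a folded sheet of epithelium over a core of vessels that hangs into the ventricles of the brain and secretes cerebrospinal fluid. Its epithelial cells pump ions and water from blood to ventricle, carry hormones and vitamins across, and are known for their very high content of transthyretin mRNA. The aqueduct, which runs through the periaqueductal grey, is lined by ciliated ependymal cells and holds no choroid plexus of its own, while plexus tissue of the fourth ventricle lies behind it. In whole tissue, fewer cells of a type and less RNA per cell cannot be told apart.

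Depth was even, at 4.39 to 6.03 gigabases per library. Marker lists set morphine-sired 2 apart from the other libraries. The summed level of 6 oligodendrocyte genes was 20112 TPM there and 9779 to 16439 TPM in the other 11 libraries, with Mbp at 12542 TPM. The summed level of 7 blood genes was 2264 TPM there and 638 to 1078 TPM in the others, and all 7 were highest in this library (Hba-a1 at 1146 and Hba-a2 at 549 TPM). The summed level of 17 ependymal genes was lowest in morphine-sired 2, at 59.3 TPM against 154 to 587 TPM in the others, and 15 of the 17 were lowest there. Neuronal genes (9, led by Snap25 and Nefl) summed to 4450 to 6144 TPM in morphine-sired and 4435 to 5696 TPM in saline-sired libraries. The highest neuronal sum was that of morphine-sired 2, where 2 of the 9 genes were highest and 4 were lowest. Astrocyte genes (6, led by Aldoc and Gfap) summed to 2735 to 3450 TPM in morphine-sired and 2748 to 3187 TPM in saline-sired libraries. The lowest astrocyte sum was that of morphine-sired 2, where 4 of the 6 genes were lowest and 0 were highest. The share of all genes lowest in morphine-sired 2 is not given here, so the counts of lowest genes have no such comparison. Microglial genes (8, led by C1qa and Csf1r) summed to 270 to 330 TPM in morphine-sired and 236 to 291 TPM in saline-sired libraries, and endothelial and mural genes (12, led by Rgs5 and Tagln) to 245 to 310 TPM in morphine-sired and 273 to 331 TPM in saline-sired libraries. Results that rest on morphine-sired 2 are therefore given with and without it.

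Ttr, which encodes transthyretin, the carrier of thyroid hormone and retinol-binding protein in plasma and cerebrospinal fluid, varied most among the 10 genes. It has 1 annotated transcript of 4 exons on chromosome 18 (15532963 to 15540177, minus strand, Rnor_6.0). Its lowest, median and highest levels were 1.81, 18.3 and 1756 TPM in morphine-sired and 0.286, 4.27 and 413 TPM in saline-sired libraries. The highest value of each group belonged to its library 2, and saline-sired 4 came next at 62.5 TPM. The level was 6144-fold higher in morphine-sired 2 than in saline-sired 6. The standard deviation of log2(TPM + 1) over the 12 libraries was 3.16, which ranked 3 among the 24540 genes tested, and the median over those genes was 0.24. The mean read depth over the transcript was 3814 in morphine-sired 2 and 0.578 in saline-sired 6, so the lowest values rest on few reads. In morphine-sired 2 the gene took 0.176% of all TPM. The groups averaged 305 ± 711 TPM in morphine-sired and 80.8 ± 164 TPM in saline-sired rats (SD, n = 6 each). The log2 difference of 1.43 ± 1.66 had a 95% interval of -2.16 to 5.02 and did not pass limma's test (adjusted p 0.9998). Without morphine-sired 2 it was 0.24 ± 1.39.

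A further 5 genes were also highest in morphine-sired 2. Kl, which encodes klotho, a co-receptor for FGF23 and a protein shed into cerebrospinal fluid by the plexus, lies on chromosome 12 (943006 to 987551, plus strand). Its lowest, median and highest levels were 1.01, 1.33 and 7.34 TPM in morphine-sired and 0.879, 0.99 and 3.2 TPM in saline-sired libraries. Apart from the library 2 of each group, all values of Kl were between 0.879 and 2.04 TPM. Aqp1, the water channel of the apical plexus membrane (chromosome 4, 85551502 to 85569360, plus strand), had 0.118, 0.253 and 5.96 TPM in morphine-sired and 0, 0.347 and 2.15 TPM in saline-sired libraries. It was at most 0.791 TPM outside the library 2 of each group and listed at 0 in saline-sired 3. F5, which encodes coagulation factor V, mostly known as a product of the liver (chromosome 13, 82479998 to 82536318, plus strand), had 0.0729, 0.323 and 7.54 TPM in morphine-sired and 0.156, 0.315 and 2.26 TPM in saline-sired libraries. The summed level of 6 hepatocyte genes, led by Serpina1 and Alb, was 4.91 TPM in morphine-sired 2. Their sums ran from 3.83 to 6.71 TPM in morphine-sired and 3.78 to 6.48 TPM in saline-sired libraries. Of the 6, 1 was highest in morphine-sired 2 (Apoa2, at 0.565 TPM there and at 0 in 10 libraries), and Cyp2e1 was at 0 in all 12. Their part in the level of F5 was not tested.

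Slc4a5, which encodes a sodium bicarbonate cotransporter of the plexus epithelium (chromosome 4, 114918488 to 115002300, plus strand), had 0.706, 1.46 and 6.26 TPM in morphine-sired and 0.644, 1.43 and 2.51 TPM in saline-sired libraries. Its highest values again stood in the library 2 of each group, while the medians of the groups lay side by side. Kcne2, the small subunit that joins KCNQ1 in the apical potassium channels of the plexus (chromosome 11, 32440237 to 32447259, plus strand), had 1.63, 2.45 and 7.89 TPM in morphine-sired and 1.44, 1.78 and 3.3 TPM in saline-sired libraries. Here morphine-sired 5, at 3.33 TPM, came just above saline-sired 2. The log2 differences of these 5 genes were 0.36 ± 0.34 for Kl, 0.20 ± 0.44 for Aqp1, 0.23 ± 0.47 for F5, 0.14 ± 0.31 for Slc4a5 and 0.36 ± 0.28 for Kcne2. Without morphine-sired 2 they were 0.06 ± 0.22 for Kl and 0.12 ± 0.19 for Kcne2, and negative for Aqp1 (-0.20 ± 0.27), F5 (-0.22 ± 0.28) and Slc4a5 (-0.14 ± 0.20). Aqp1 and F5 also passed the filter on low values through this library: without it their means were 0.465 and 0.492 TPM, below the minimum of 0.5.

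**Figure D1:**
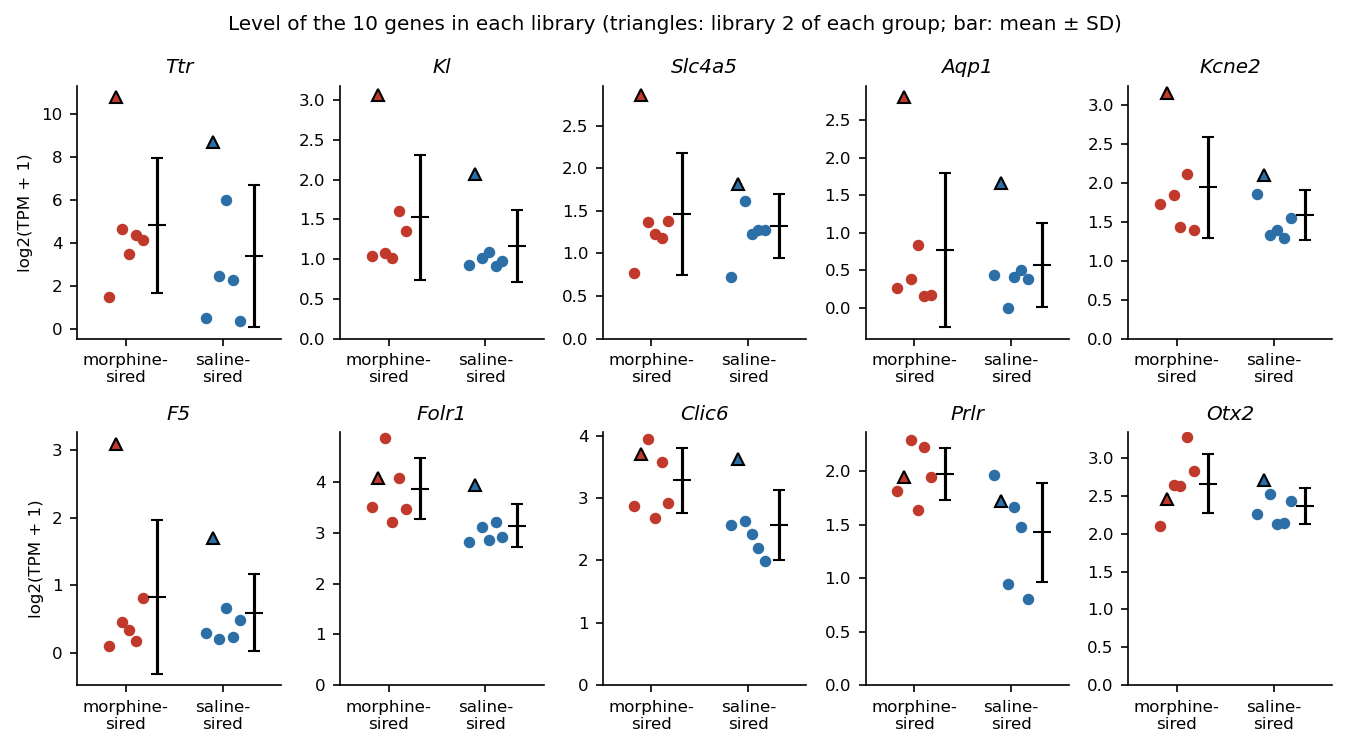
Level of each of the 10 genes as log2(TPM + 1) in 6 morphine-sired (red) and 6 saline-sired (blue) libraries, with the mean ± SD of each group beside the points, each gene on its own scale. Triangles mark the library 2 of each group: Ttr, Kl, Slc4a5, Aqp1, Kcne2 and F5 were highest in morphine-sired 2, and the other 4 genes were not.

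The other 4 genes were present in all libraries and had their maximum elsewhere. Folr1, which encodes the folate receptor that carries folate through the plexus epithelium (chromosome 1, 166934460 to 166944498, minus strand), had 8.25, 13.1 and 28.3 TPM in morphine-sired and 6.05, 7.08 and 14.5 TPM in saline-sired libraries. Clic6, a member of the chloride intracellular channel family (chromosome 11, 32655616 to 32699382, plus strand), had 5.4, 8.71 and 14.5 TPM in morphine-sired and 2.96, 4.65 and 11.3 TPM in saline-sired libraries. For both genes morphine-sired 3 was the highest library, and the group ranges overlapped. Prlr, which encodes the prolactin receptor (chromosome 2, 60131776 to 60325692, plus strand), had 2.11, 2.85 and 3.88 TPM in morphine-sired and 0.744, 1.97 and 2.91 TPM in saline-sired libraries. Its highest library was morphine-sired 3 too, and its lowest pair were saline-sired 6 and saline-sired 3. Otx2, a homeodomain transcription factor needed to form and maintain the plexus and also expressed by some midbrain neurons (chromosome 15, 25516715 to 25526273, minus strand), had 3.3, 5.23 and 8.71 TPM in morphine-sired and 3.37, 4.09 and 5.54 TPM in saline-sired libraries. It peaked in morphine-sired 5, and stood at 4.52 TPM in morphine-sired 2.

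These genes did not vanish where Ttr was nearly absent. In morphine-sired 2, with Ttr at 1756 TPM, Folr1 was at 15.9, Clic6 at 12.0, Otx2 at 4.52 and Prlr at 2.85 TPM. In saline-sired 6, with Ttr at 0.286 TPM, they were at 6.52, 2.96, 4.38 and 0.744 TPM, the lowest value of Clic6 and of Prlr. In saline-sired 1, with Ttr at 0.409 TPM, they were at 6.05, 4.93, 3.81 and 2.91 TPM. This was not particular to these genes. Kcne2, Slc4a5 and Kl were at 1.92, 1.42 and 0.966 TPM in saline-sired 6 and 2.61, 0.644 and 0.904 TPM in saline-sired 1. Aqp1 and F5 were at or below 0.403 TPM in these libraries. The label of choroid plexus genes therefore describes the list, and the 10 genes did not vary as a unit in this tissue.

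The comparison by the sire's treatment found no difference past the threshold for these genes. With limma, 0 of the 10 had an adjusted p under 0.05 (each 0.9998), as had 0.0% of all 24540 genes tested, and limma-voom, run on estimated reads, called 0 of the 10 too. At an unadjusted p under 0.05 there were 3, all with the higher mean in morphine-sired rats, where 3.22% of all genes had such a p and 1.5% also had the higher mean there. Folr1 averaged 14.8 ± 7.33 TPM in morphine-sired and 8.22 ± 3.2 TPM in saline-sired rats, a log2 difference of 0.73 ± 0.27 (95% interval 0.13 to 1.32, limma's unadjusted p 0.0201). Clic6 averaged 9.27 ± 3.69 TPM in morphine-sired and 5.39 ± 3.03 TPM in saline-sired rats (0.71 ± 0.29, unadjusted p 0.0284). Prlr averaged 2.98 ± 0.678 TPM in morphine-sired and 1.8 ± 0.838 TPM in saline-sired rats (0.55 ± 0.21, unadjusted p 0.0199). Otx2 averaged 5.52 ± 1.82 TPM in morphine-sired and 4.21 ± 0.853 TPM in saline-sired rats (0.29 ± 0.18, unadjusted p 0.121). With annotated transcripts alone, the difference of Folr1 was 0.29 ± 0.23 and that of Prlr 0.16 ± 0.13.

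For all 10 genes the mean of log2(TPM + 1) was higher in morphine-sired rats, as it was for 49.2% of all genes, and their median difference was 0.36 against -0.002 over all genes. Without morphine-sired 2 this held for 7 of the 10, against 52.7% of all genes, with a median of 0.18 against 0.009. Folr1 (0.68 ± 0.29) and Prlr (0.55 ± 0.22) then still had an unadjusted p under 0.05, at 0.0393 and 0.0296, beside 6.0% of all genes, or 3.56% with the higher mean in morphine-sired rats, while Clic6 (0.63 ± 0.30) was at 0.0609. Of the 8 microglial genes, 4 (C1qa, C1qb, C1qc and Csf1r) had an unadjusted p under 0.05 as well, all with the higher mean in morphine-sired rats (median log2 difference of the list 0.16 with and without morphine-sired 2). Of the 8, 7 had the higher mean there and 1 the lower. All 8 were above 0 in the 12 libraries, and their part in the higher means was not tested. Other lists differed in direction. Means were lower in morphine-sired rats for 6 of 6 oligodendrocyte, 10 of 12 endothelial and mural and 7 of 9 neuronal genes. They were higher for 5 of 6 astrocyte and 6 of 6 tested blood genes. The groups overlapped for each of the 10 genes, so 0 were separated, against 0.0896% of all genes. The intervals were wide: the median half-width over all genes was 0.30, while that of Ttr spanned several log2 units to either side.

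**Figure D2:**
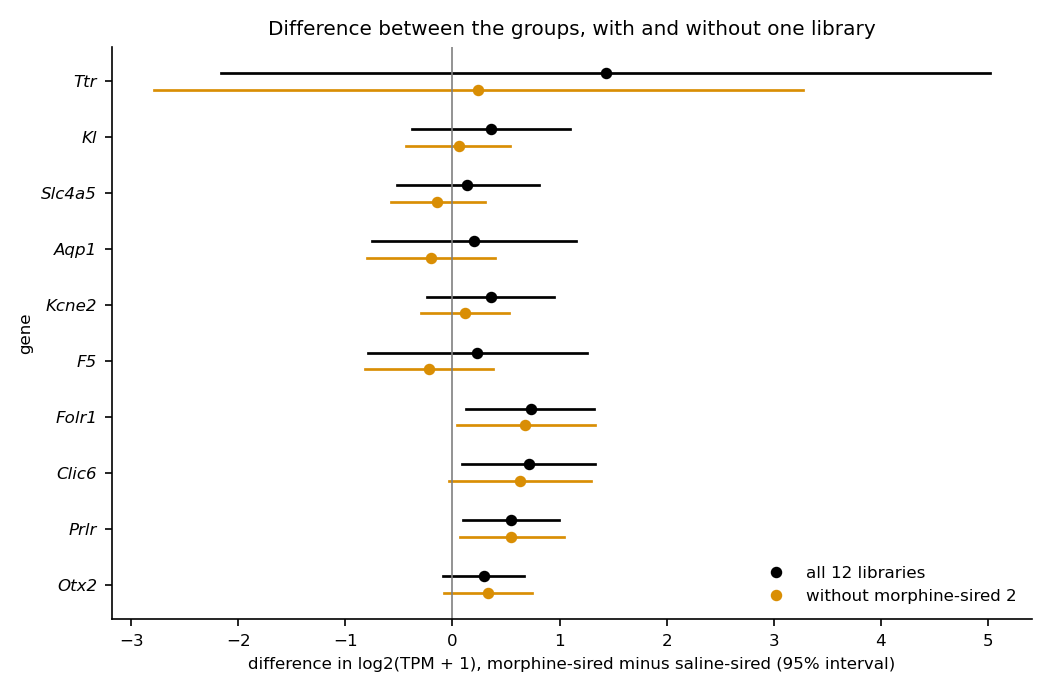
Difference in log2(TPM + 1), morphine-sired minus saline-sired, for each of the 10 genes with its 95% interval from limma, from all 12 libraries (black) and without morphine-sired 2 (orange). The difference of Ttr fell to 0.24 without that library, against 1.43 with it, while that of Prlr was 0.55 in both fits.

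By library, 6 of the 10 genes were highest in morphine-sired 2, as were 9.76% of all genes, and 5 of them (Ttr, Kl, Slc4a5, Aqp1 and F5) were highest there and next highest in saline-sired 2. Aqp1 and F5 are among them, which reached the filter through this library. That order held for 210 of 24540 genes, or 0.856%. A further 3 (Folr1, Clic6 and Prlr) were highest in morphine-sired 3, as were 11.2% of all genes, and 0 were highest in saline-sired 2, as were 9.5% of all genes. The summed level of the 10 genes was 1826 TPM in morphine-sired 2 and 460 TPM in saline-sired 2, with Ttr making up most of it, and 19.9 to 83.8 TPM in the other 10 libraries. Blood genes moved with this order: their sum was also highest in morphine-sired 2 (2264 TPM) and next in saline-sired 2 (1078 TPM), and 3 of the 7 showed this order. It ran from 738 to 2264 TPM in morphine-sired and 638 to 1078 TPM in saline-sired libraries, and of the 7 genes Slc4a1 was at 0 in some libraries. Their part in the result was not tested. Meningeal and fibroblast genes, led by Mgp and Dcn, were highest in saline-sired 2 (94.0 TPM over 14 genes, of which 0 were at 0 in any library), within 65.1 to 86.6 TPM in morphine-sired and 67.0 to 94.0 TPM in saline-sired libraries, and this part was not tested either. Pineal genes (7, led by Lhx4 and Aanat) summed to 2.26 to 13 TPM in morphine-sired and 1.58 to 12.4 TPM in saline-sired libraries, with Crx at 0 in all 12. The 4 genes of the subcommissural organ, a secretory ependymal gland at the roof of the aqueduct, were led by Car3 and Sspo and summed to 3.14 to 45.5 TPM in morphine-sired and 3.21 to 26.7 TPM in saline-sired libraries, and 0 of them were highest in morphine-sired 2.

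**Figure D3:**
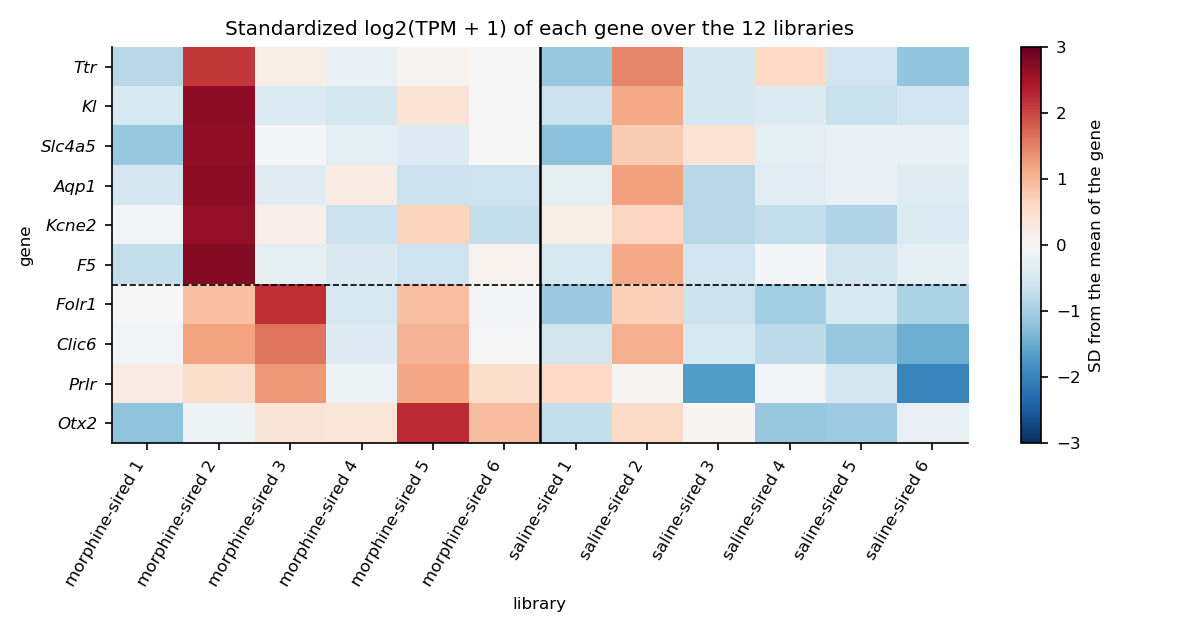
Standardized log2(TPM + 1) of the 10 genes (rows) in the 12 libraries (columns, morphine-sired left of the solid line, saline-sired right of it), in standard deviations from the mean of each gene. The 6 genes above the dashed line had their highest value in morphine-sired 2, and the mean over all 10 genes was 1.8 in that library and 0.88 in saline-sired 2.

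The transcripts behind the levels differed between libraries as well. The 10 genes have 25 transcripts in the files, 17 annotated and 8 assembled from the reads, and of the 17 at a mean of at least 0.5 TPM 0 passed limma's test over all transcripts, as did 0.00198% of all 50419. At an unadjusted p under 0.05 there were 2, against 3.77% of all, and 7 were highest in morphine-sired 2, against 8.85% of all. That last count rests on the filter: 4 of the 7, transcripts of Folr1, Slc4a5, Aqp1 and F5, had means of 0.00302 to 0.435 TPM without this library and reached 0.5 TPM through it. The software divides reads between overlapping transcripts, so the split within a gene is less certain than its sum.

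Slc4a5 has an annotated transcript of 27 exons that starts at 114918488 and one of 25 exons that starts further in, at 114935970. The shorter one (ENSRNOT00000082336) was at 6.21 TPM in morphine-sired 2 and 1.51 TPM in saline-sired 2, and at 0 in 6 libraries. The longer one (ENSRNOT00000014249) was at 0.051 TPM in morphine-sired 2, where the shorter held 99.2% of the gene, and at up to 1.86 TPM elsewhere. The excess of Slc4a5 in that library was therefore assigned to the inner start site. Morphine-sired 5 likewise had the shorter alone, at 1.26 TPM. In Kcne2 an assembled transcript that starts at 32440689, inside the annotated gene, had 4.17 TPM in morphine-sired 2, or 52.9% of the gene, 0.668 TPM in saline-sired 2 and at most 0.411 TPM in the others. The annotated transcript stayed within 1.63 to 3.72 TPM in morphine-sired and 1.44 to 2.63 TPM in saline-sired libraries.

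Most of the level of F5 (91.4%) lay in assembled transcripts. An 8-exon one that starts at 82523282 had 4.95 TPM in morphine-sired 2 and 1.31 TPM in saline-sired 2, and a 7-exon one from 82500118 had 2.46 TPM in morphine-sired 2 and 0.732 TPM in saline-sired 2. The 2 annotated transcripts stayed at or below 0.213 TPM. Assembled transcripts also held 90.1% of Folr1. One of them (MSTRG.1841.5) had 6.87 TPM in morphine-sired 2 and at most 0.0155 TPM in the others, so 43.1% of Folr1 there came from a form nearly absent elsewhere. The peak of Folr1 in morphine-sired 3 came from another assembled form (MSTRG.1841.1) at 20.6 TPM. In Prlr, the assembled 5-exon transcript had a log2 difference of 0.68 ± 0.26, while the annotated 10-exon one from the same start region had 0.16 ± 0.17. The main Clic6 transcript (ENSRNOT00000084412, mean 6.33 TPM) had 0.72 ± 0.32. Otx2 was split between an annotated transcript of 3 exons (0.36 ± 0.48) and an assembled one of 5 exons (0.14 ± 0.24).

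**Figure D4:**
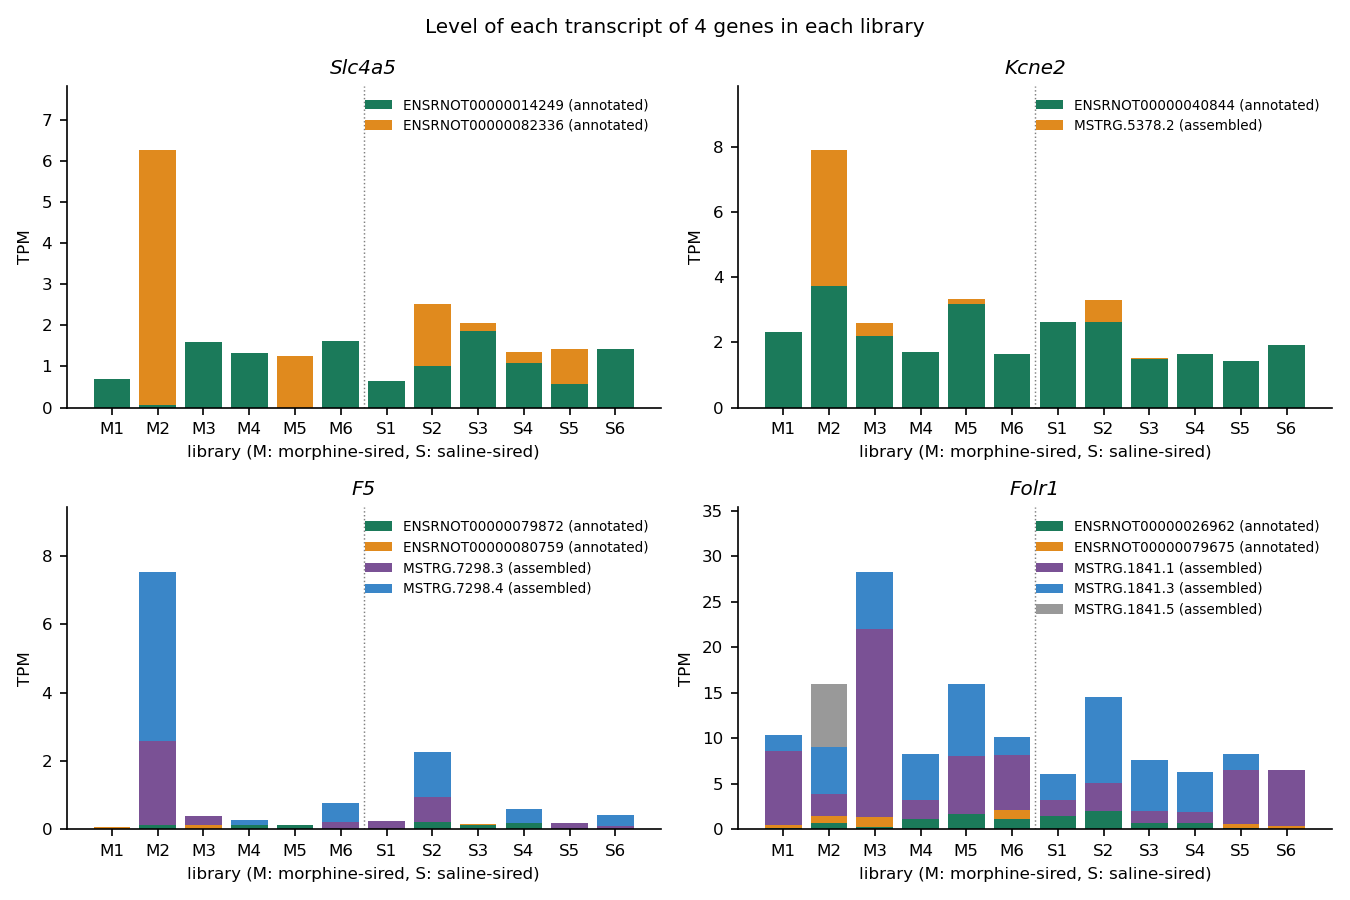
Level in TPM of each transcript of Slc4a5, Kcne2, F5 and Folr1, stacked per library (M1 to M6 morphine-sired, S1 to S6 saline-sired), with assembled and annotated transcripts in separate colours. In M2 the transcript of Slc4a5 with the inner start held 99.2% of the gene, and a Folr1 form at 6.87 TPM appeared that was at most 0.0155 TPM in the other libraries.

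Promoters were compared because several of the genes moved together, and OTX2, the product of one of them, is a regulator of plexus genes that binds sites with the core TAATC. RefSeq's table for the build GRCr8, which is not the build of the files, held 7 start windows for 6 of the 10 genes (Prlr with 2 windows, Aqp1, Slc4a5, Kl, F5 and Ttr). The full OTX2 type site TAATCC was in 0 of the 7 windows on either strand, and in 6.34% of all 33469 windows. The core TAATC, part of that site and searched alone on both strands, was in the windows of Ttr (2 matches) and Kl (1 match), and in 20.5% of all windows. A TATA box (TATAAA, both strands) was in the window of Aqp1 and in 12.9% of all windows. A match is a description of the sequence, not a site shown to be bound. The 250 bases before the start are shown for these 3 genes, from RefSeq, 5′ to 3′ on the plus strand, with the matches in capitals: chr18:12218508-12218757 for Ttr, where the window lies within the span of RefSeq's gene, chr12:5325753-5326002 for Kl and chr4:85812534-85812783 for Aqp1.
Ttr: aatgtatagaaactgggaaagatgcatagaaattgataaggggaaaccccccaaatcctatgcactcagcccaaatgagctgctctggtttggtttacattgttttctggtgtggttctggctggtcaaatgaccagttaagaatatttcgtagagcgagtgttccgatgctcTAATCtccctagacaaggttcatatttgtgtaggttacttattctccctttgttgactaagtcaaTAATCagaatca
Kl: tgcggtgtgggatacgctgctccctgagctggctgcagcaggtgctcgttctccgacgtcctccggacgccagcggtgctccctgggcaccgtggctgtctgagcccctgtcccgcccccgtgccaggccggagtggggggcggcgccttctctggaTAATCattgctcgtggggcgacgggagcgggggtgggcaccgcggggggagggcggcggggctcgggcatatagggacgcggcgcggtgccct
Aqp1: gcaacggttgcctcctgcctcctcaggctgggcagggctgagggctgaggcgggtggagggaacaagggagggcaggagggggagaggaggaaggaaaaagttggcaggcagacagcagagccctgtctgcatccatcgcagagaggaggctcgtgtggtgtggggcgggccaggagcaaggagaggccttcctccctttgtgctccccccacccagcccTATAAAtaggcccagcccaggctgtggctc

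The likeness of the 10 genes to each other over the 12 libraries was uneven. Over the 45 pairs, Spearman's rho had a median of 0.42 and a range of -0.20 to 0.86, and 40 were positive. With p-values from permutations adjusted over the 45 pairs, 19 passed by Pearson's r and 2 by Spearman's rho. The closest pair by rank was Folr1 with Clic6, at r 0.92 (permutation p 1e-05, the smallest that 100000 permutations can give, adjusted 0.00045) and rho 0.86 (permutation p 0.00059, adjusted 0.0184). Without the 2 libraries farthest from the median of Folr1 it kept an r of 0.90, and within groups rho was 0.89 in morphine-sired and 0.31 in saline-sired libraries. Ttr with Kl had an r of 0.87 (permutation p 0.00053, adjusted 0.0096) and a rho of 0.85 (permutation p 0.00082, adjusted 0.0184), with an r of 0.52 and a rho of 0.75 without morphine-sired 2 and saline-sired 2.

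For other pairs the relation rested on the library 2 of each group. Ttr with Aqp1 had an r of 0.80 (permutation p 0.00426, adjusted 0.0192) and a rho of 0.31 (permutation p 0.32, adjusted 0.48), and its r was -0.02 without these libraries. Ttr with Kcne2 had an r of 0.69 (permutation p 0.0152, adjusted 0.0379) and a rho of 0.40 (permutation p 0.201, adjusted 0.338), and its r was -0.03 without them. Aqp1 with F5 was among the highest pairs by Pearson's r, at 0.94 (permutation p 0.00325, adjusted 0.0183) with a rho of 0.57 (permutation p 0.0594, adjusted 0.191), and had 0.05 without them. Ttr with Otx2, at r 0.25 and rho 0.42 (permutation p 0.428 and 0.178, adjusted 0.507 and 0.334), did not pass. Ttr with Clic6 had an r of 0.68 (permutation p 0.0146, adjusted 0.0379) and a rho of 0.70 (permutation p 0.0142, adjusted 0.127). Its r was 0.50 without the library 2 of each group, and rho within groups was 0.89 in morphine-sired and 0.71 in saline-sired libraries. Of the 9 pairs with Ttr, 9 had a positive rho, 6 passed by Pearson's r and 1 by Spearman's rho. Within groups rho between Ttr and Kl was 0.77 in morphine-sired and 0.77 in saline-sired libraries.

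Ependymal cells line the aqueduct, so each gene was also set against the summed level of the 17 ependymal genes, a comparison added after the data had been seen. Over all 12 libraries 0 of the 10 relations passed when adjusted over the 10, and morphine-sired 2 lay far from the rest, with the lowest ependymal level. Clic6 had an r of 0.30 and a rho of 0.59 (permutation p 0.357 and 0.0488, adjusted 0.397 and 0.163). Without the 2 libraries farthest in ependymal level, morphine-sired 2 and 3, its r was 0.96, and without morphine-sired 2 alone r was 0.98 and rho 0.96. Folr1 had an r of 0.36 and a rho of 0.53 (permutation p 0.256 and 0.0778, adjusted 0.319 and 0.194), and without the same pair of libraries an r of 0.88. For Prlr r was 0.36 and rho 0.62 (permutation p 0.252 and 0.0376, adjusted 0.319 and 0.163), and r was 0.70 without that pair. For Otx2 r was 0.46 and rho 0.60 (permutation p 0.13 and 0.0429, adjusted 0.29 and 0.163), and r was 0.75 without it.

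The 6 genes that peaked in morphine-sired 2 were not alike in this. Without the same pair of libraries, r was 0.78 for Kl, 0.71 for Kcne2 and 0.54 for Ttr, against 0.25 for F5, 0.18 for Slc4a5 and 0.17 for Aqp1. Over all libraries Aqp1 had an r of -0.61 and a rho of -0.50 with the ependymal level (permutation p 0.063 and 0.102, adjusted 0.274 and 0.203). F5 had an r of -0.60 and a rho of -0.25 (permutation p 0.069 and 0.427, adjusted 0.274 and 0.59). Slc4a5 had an r of -0.56 and a rho of -0.06 (permutation p 0.0821 and 0.851, adjusted 0.274 and 0.851). Ttr (r -0.26, permutation p 0.414, adjusted 0.414), Kl (r -0.45, permutation p 0.145, adjusted 0.29) and Kcne2 (r -0.38, permutation p 0.201, adjusted 0.319) also had a negative r over all libraries, with a rho of 0.20, 0.32 and 0.20 (permutation p 0.531, 0.309 and 0.53, adjusted 0.59, 0.516 and 0.59). The ependymal list is given beside the group comparison, although 0 of its genes passed the test or had an unadjusted p under 0.05. Its sum was 59.3 to 587 TPM in morphine-sired and 154 to 381 TPM in saline-sired libraries, 15 of its 16 tested genes were higher on average in morphine-sired rats, beside 49.2% of all genes (median log2 difference 0.12, and 0.58 without morphine-sired 2), and Spag6 was at 0 in 1 library. Its leading genes were Dynlrb2, which encodes a dynein light chain, at 45.3 ± 31.4 TPM in morphine-sired and 32.8 ± 14.4 TPM in saline-sired rats, and Ccdc153 at 39.0 ± 26.7 TPM in morphine-sired and 26.7 ± 10.6 TPM in saline-sired rats. How far it bears on the higher means of Folr1, Clic6 and Prlr was not tested.

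**Figure D5:**
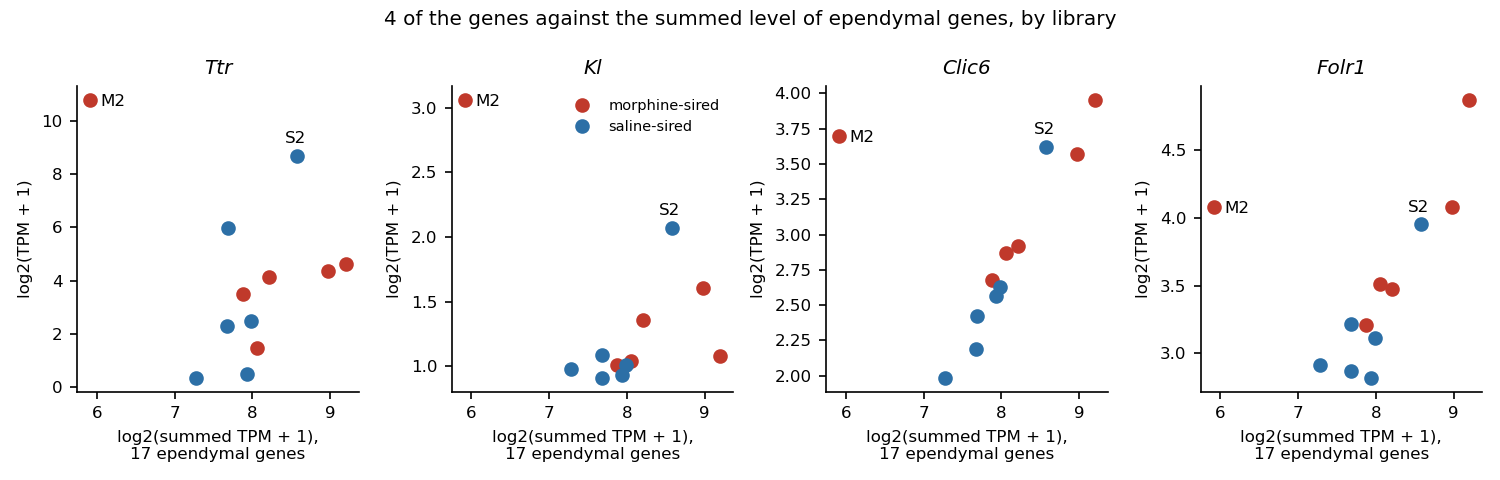
Level of Ttr, Kl, Clic6 and Folr1, as log2(TPM + 1), against the summed level of 17 ependymal genes, as log2(summed TPM + 1), each point a library (red morphine-sired, blue saline-sired). Apart from morphine-sired 2 (M2), the points of Clic6 lie along a line (r 0.98), while Ttr and Kl were highest in M2, the library with the lowest ependymal level (59.3 TPM).

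Some further genes known from the choroid plexus showed the same order of libraries, and most did not. Of 50 listed, 47 were found and 41 tested. The list had 26 genes with a higher and 15 with a lower mean in morphine-sired rats, and 0 had an unadjusted p under 0.05 (median log2 difference 0.05). Of the 41 tested, 14 were highest in morphine-sired 2, beside 9.76% of all genes, and 4 were also next highest in saline-sired 2, beside 0.856% of all genes. Both counts rest in part on the filter. They include Kcnj13 and Cldn2, which reached a mean of 0.5 TPM through morphine-sired 2 and had medians of 0.253 and 0.0767 TPM. With the genes below the filter included, 6 of the 47 were highest in morphine-sired 2 and next highest in saline-sired 2, all at low levels here. Sostdc1, which encodes a secreted BMP and Wnt antagonist, had 9.27 TPM in morphine-sired 2 and 2.32 TPM in saline-sired 2, and Kcnj13, the inward rectifier Kir7.1 of the apical plexus membrane, had 6.35 and 1.82 TPM in the same libraries. Cldn2, the claudin of leaky epithelia, had 5.62 TPM in morphine-sired 2, 1.81 TPM in saline-sired 2 and at most 0.231 TPM in the others. Slc13a4, a sulfate transporter, had 7.06 TPM in morphine-sired 2 and 6.68 TPM in saline-sired 2, and the other members of this set were Tmem72 (1.99 and 0.997 TPM) and Cldn1 (1.45 and 0.407 TPM). These 6 genes were named after their values had been seen.

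The most abundant of the further genes are also made by other brain cells. Enpp2, which encodes autotaxin and is also an oligodendrocyte gene, averaged 184 ± 65.0 TPM in morphine-sired and 202 ± 26.4 TPM in saline-sired rats and was highest in morphine-sired 2 (311 TPM). Htr2c, the serotonin 2C receptor gene, averaged 105 ± 25.5 TPM in morphine-sired and 103 ± 21.3 TPM in saline-sired rats and was lowest in morphine-sired 2 (64.7 TPM), the reverse of Ttr. Slc12a2, the NKCC1 cotransporter (115 TPM), Igfbp2, an IGF binding protein (154 TPM), and Slc4a2, an anion exchanger (63.1 TPM), were highest in morphine-sired 2 too, but each was next highest in saline-sired 4, not in saline-sired 2. Spint2, a protease inhibitor, averaged 80.7 ± 22.3 TPM in morphine-sired and 61.2 ± 25.1 TPM in saline-sired rats. Trpm3, a cation channel, averaged 36.3 ± 6.88 TPM in morphine-sired and 34.3 ± 4.69 TPM in saline-sired rats, and Ace, the angiotensin converting enzyme, 32.0 ± 1.74 TPM in morphine-sired and 30.4 ± 2.12 TPM in saline-sired rats. Spint2 peaked in morphine-sired 3 (121 TPM), like Folr1 and Clic6.

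Outside the lists, the genes with the pattern most like the mean standardized level of the 10 members, by Spearman's rho over the 12 libraries and among 13416 candidates, included Suds3 (0.95), Mthfd1 (0.88), Tdh (0.88), Ptpn6 (0.87), Fam167a (0.87), Metrn (0.87, in a locus of 2 symbols), Lrrc10b (0.86), Amn (0.85) and Cabyr (0.84). These likenesses were not tested, and among so many candidates over 12 libraries some high values of rho arise by chance. The spread of these genes over the libraries was uneven. Suds3 ran from 84.0 to 87.7 TPM in morphine-sired and 72.0 to 88.0 TPM in saline-sired libraries, and Lrrc10b from 8.38 to 17.8 TPM in morphine-sired and 3.83 to 13.1 TPM in saline-sired libraries. Cabyr was at 5.61 TPM in morphine-sired 2 and 0.299 to 0.877 TPM in the other 11 libraries.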

How the data were processed

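PolyA RNA of the periaqueductal grey was sequenced from 12 male rats, 6 morphine-sired and 6 saline-sired, grouped by the treatment label. Replicate numbers follow the order of the deposited samples and pair nothing. Per the submitters' processing notes, which give no roles, the tools were HISAT2 2.2.0, StringTie 2.1.2, SAMtools 1.11, FastQC 0.11.9, DESeq2 1.28.1 and Trimmomatic 0.39, and the genome build was Rnor_6.0. The authors deposited, per the file headers from StringTie 1.3.6, coverage, FPKM and TPM for 76232 transcripts per library, 41063 annotated and 35169 assembled. Their table of log2 values, as deposited, matched log2(FPKM + 1) of the annotated transcripts to within 4.93e-08. Read pairing and strand are not given in the sources used here.

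TPM was summed over the transcripts of a locus and symbol, assembled transcripts included where the locus has 1 symbol. Of 41596 genes, 24540 reached a mean of 0.5 TPM over the libraries and entered a test with limma 3.58.1 (R 4.3.3, intensity trend, two-sided, Benjamini-Hochberg over all genes, threshold 0.05) on log2(TPM + 1), a scale that makes changes of low genes smaller. Transcripts were tested likewise. Depth was taken from the ratio of coverage to FPKM, and intervals cover 95%. Correlations used 100000 permutations in scipy 1.17.1, with Python 3.11.15, numpy 2.4.6, pandas 2.3.3 and matplotlib 3.10.9. The fit was also run on simulated data with known changes. These were drawn as independent normal noise around each gene's mean, without a library that deviates in many genes as morphine-sired 2 does. No result here rests on that run.

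The members, the marker lists and the tests were chosen with earlier results of these data known. Named are the 10 members, the 8 further plexus genes with the highest mean TPM, the 10 genes outside every list most like the members by Spearman's rho, the 2 genes with the highest mean of each other list, and transcripts of members at a mean of at least 0.5 TPM. Transcripts below that mean, C1qb, C1qc and the genes highest in morphine-sired 2 and next in saline-sired 2, were named after their values were seen. Some genes that this rule names are not reported here. Alternatives changed the pseudocount, the filter, the transcripts summed, the unit, the normalization, the test and the libraries.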

Additional observations from a re-analysis of the deposited data

Results flagged for a closer look

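Within each group of 6 libraries, a gene is listed here where the gap between its highest or lowest library and the nearest of the others took a share of the group's range of log2(TPM + 1) above Dixon's 95% critical value for 6 samples. Chance gives about 1 such case in 20 groups, and 9 were found in the 20 groups of the 10 genes, each at the highest library and each in the library 2 of its group. Over all 24540 genes tested, 8.82% of the groups had such a library, and 1.32% had it as the highest value in the library 2. In morphine-sired rats these were Ttr (1756 TPM, gap 0.662 of the range), Kl (7.34 TPM, 0.708), Slc4a5 (6.26 TPM, 0.706), Aqp1 (5.96 TPM, 0.742) and F5 (7.54 TPM, 0.762). In saline-sired rats these were Kl (3.2 TPM, 0.851), Aqp1 (2.15 TPM, 0.692), F5 (2.26 TPM, 0.698) and Folr1 (14.5 TPM, 0.653). Aqp1 and F5 reached the filter on low values through morphine-sired 2, without which their means were 0.465 and 0.492 TPM. The cases of a library are not independent of each other, since they come from the same RNA. Clic6, Prlr, Otx2 and Kcne2 had no such library in either group.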

How the results depend on the processing

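Over 24 alternatives and 231 values of the 10 genes, 0 passed the threshold (smallest adjusted p 0.41), and 5 changed sign. Not all of these values were free to change. The exact permutation, which could not pass, limma's robust form, no filter and the minimum mean of 3 TPM keep the log2 differences of the main fit. Their signs were therefore fixed. Slc4a5 was at -0.05 ± 0.24 with array weights, -0.14 ± 0.20 without morphine-sired 2 and -0.04 ± 0.19 without the library 2 of both groups, while Aqp1 (-0.20 ± 0.27) and F5 (-0.22 ± 0.28) changed sign without morphine-sired 2. With a minimum mean of 3 TPM, 4 genes were left, and the mean of all 4 was higher in morphine-sired rats. Annotated transcripts alone left out F5, and FPKM in place of TPM left out Aqp1 and F5, through the filter. Leaving out each library in turn gave 7 to 10 genes with a higher mean and a median difference of 0.18 to 0.50, with 0 genes past the threshold. The log2 difference was then 0.24 to 2.49 for Ttr, 0.53 to 0.89 for Folr1, 0.58 to 0.92 for Clic6 and 0.42 to 0.66 for Prlr. It was 0.06 to 0.54 for Kl, -0.14 to 0.28 for Slc4a5 and 0.17 to 0.40 for Otx2. For Aqp1 it was -0.20 to 0.42, for Kcne2 0.12 to 0.47 and for F5 -0.22 to 0.45. Of the libraries, only morphine-sired 2 was left out in a fit of transcripts, and 0 transcripts of the 10 genes passed there. An exact permutation of 924 assignments cannot pass after adjustment over all genes. No paired analysis was possible because the replicate numbers follow the order of the samples and the labels name no litter, sire or batch that pairs the groups. Depth limits Ttr, Aqp1 and F5 most, whose lowest mean read depth per base was 0.578, 0 and 0.186.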
